A study of Mus musculus with 8 samples.

Results

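Autophagy delivers cytoplasm, protein aggregates and whole organelles to the lysosome inside a double-membraned vesicle, the autophagosome. A kinase complex around ULK1 starts the process, a lipid kinase complex around PIK3C3 marks the membrane, and ATG9A and the ATG2 proteins supply lipid while it grows. A pair of ubiquitin-like conjugation systems then attaches LC3 and GABARAP proteins to the membrane, where cargo receptors bind them, and in mitophagy the cargo is a mitochondrion. Skeletal muscle uses these routes to renew its contractile proteins and mitochondria. The 39 genes described here were chosen by symbol, for their place in this pathway, with earlier results of these data known. All 39 were found by their Ensembl identifiers among the 22880 gene IDs of the count files, and all 39 passed the filter on low counts that left 14001 genes to test.

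The counts came from RNA-seq of soleus, a postural muscle of the hindlimb. The mice were males aged 2 months on a C57BL/6 background (C57BL/6J in the methods of the study). There were 4 control mice (Dnm2 +/+) and 4 mice with 1 wild-type and 1 mutant allele (Dnm2 +/K562E). The mutation is a knock-in at the endogenous Dnm2 locus, present in every cell of the animal, and it is linked to a dominant form of Charcot-Marie-Tooth neuropathy in people. The targeted allele also keeps a LoxP site in a neighbouring intron, which the controls lack. Each library is the RNA of a whole muscle from 1 mouse.

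Library totals ran from 33407430 to 48832814 counts, and the counts of any of the 39 genes in any mouse lay between 201 and 34511. Counting error is part of the spread between mice and was not separated from it. The coefficient of variation of a gene among the 4 controls had a median of 5.75% over the 39 genes, and 5.12% among the 4 mutants. Levels are given as normalized CPM, which is CPM after TMM scaling, a correction for differences in library composition (CPM is the count of a gene relative to the total of its library). Dnm2 itself averaged 66.3 ± 4.74 normalized CPM in controls and 73.4 ± 2.43 in mutants (SD, n = 4 each), with an edgeR adjusted p of 0.091, and a count per gene cannot tell the mutant allele from the wild-type one.

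The tissue of the mutants also differed in its cell type markers. All 7 macrophage markers rose, with summed levels of 88.2 to 161 normalized CPM in controls and 209 to 338 in mutants. All 5 fibroblast markers rose (1810 to 2740 against 3885 to 5033), as did all 4 tendon markers (271 to 580 against 832 to 1115). Of 8 myofibre markers 6 fell, and their sum lay between 63213 and 71038 normalized CPM in controls and between 43103 and 48315 in mutants. All 4 endothelial markers and both satellite cell markers fell as well, 1 of 4 Schwann cell markers (Mbp) fell, and the 3 adipocyte markers did not pass the test. No marker of any list was at 0 counts. In RNA from whole muscle, fewer cells of a type and less RNA per cell cannot be told apart, and the part of these shifts in the results on autophagy genes was not tested.

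Across the 39 genes, 7 were higher and 10 were lower in Dnm2 +/K562E soleus at an adjusted p under 0.05 (edgeR's quasi-likelihood test, Benjamini-Hochberg over all tested genes). These are 17.9% and 25.6% of the list, beside a background of 22.2% of all tested genes called higher and 21.7% called lower. Genes of the list were thus called about as often as all tested genes. The median size of the log2 fold change, whatever its sign, was 0.18 over the 39 genes and 0.29 over all tested genes. The 39 genes had at least 201 counts in every mouse, while the background holds genes kept by a minimum count of 10. No background of like counts was compared, so smaller sizes are not read as a trait of these genes. At the study's stricter rule, which asks in addition for a size of 0.58 or more on the log2 scale, 1 of the 39 genes was called lower, Pink1, where 7.85% of all tested genes were. With the same rule 0 of the 39 were called higher by edgeR's quasi-likelihood test, by its exact test and by DESeq2. By the quasi-likelihood test 12.9% of all tested genes were called higher. The largest increase in the list with TMM was 0.50, in Uvrag, so this 0 did not depend on the p threshold. By edgeR's quasi-likelihood test, scaling by library size alone, without TMM, gave 1 gene higher (Uvrag, 0.71) and 0 lower. Pink1 was then at -0.42.

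All 17 called genes had levels that did not overlap between the 4 controls and the 4 mutants. With Nbr1 and Atg16l1, which did not pass the test, 8 genes were higher without overlap and 11 were lower without overlap, beside 20.6% and 20.5% of all tested genes. How many genes count as higher or lower depends on the scaling between libraries. Library size alone moved the median log2 fold change of all tested genes from 0.01 to 0.22, and the split of the 39 genes from 7 higher and 10 lower to 18 higher and 5 lower. A change of scaling shifts all genes by about the same amount, so the median of the 39 genes stayed 0.07 below that of all genes by construction. The 7 increases and the decreases of Pink1, Atg4d, Atg9a, Optn and Bnip3 held under both scalings.

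**Figure D1:**
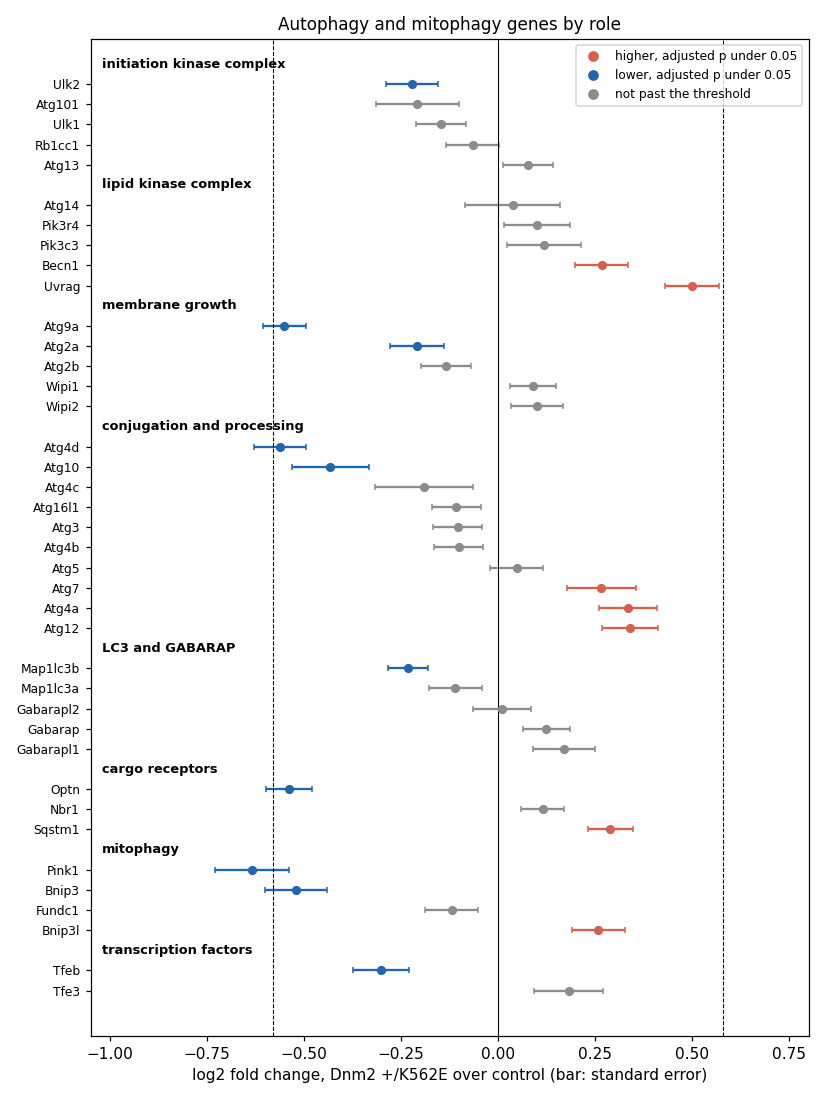
Log2 fold change of each of the 39 genes (x axis, Dnm2 +/K562E over control, TMM scaling) grouped by role, where points are estimates from 4 mice a group, bars are standard errors and dashed lines mark 0.58 in either direction. Pink1 is the single gene beyond a dashed line, and called genes of both directions stand in the groups for conjugation, cargo receptors and mitophagy. With library size alone the decreases of Ulk2, Atg10, Map1lc3b and Tfeb no longer pass the test and Atg2a changes sign.

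Genes of mitophagy, the removal of mitochondria, held the most expressed and the most changed gene of the list. Pink1 encodes the kinase that accumulates on damaged mitochondria and marks them for removal (ENSMUSG00000028756, GRCm38 chromosome 4, 138313409 to 138326307, minus strand). It had the highest level per exon length of the 39 genes in control soleus, 288 ± 11 RPKM (SD, n = 4). Its normalized CPM was 802, 775, 773 and 731 in the 4 controls and 412, 559, 550 and 464 in the 4 mutants. Every mutant lay below every control, and the mutants were more spread than the controls. Pink1 fell to 0.644 of its control level (log2 fold change -0.63 ± 0.09 SE, edgeR adjusted p = 0.000325). Its size past 0.58 rested on the scaling and on the lowest mutant. With library size alone the change was -0.42 (edgeR adjusted p = 0.00352), and without Dnm2 +/K562E mouse 1 it was -0.56 (edgeR adjusted p = 0.000557).

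BNIP3 and BNIP3L (NIX) are related receptors in the outer mitochondrial membrane that bind LC3 and GABARAP directly, and their genes moved in opposite directions. Bnip3 (ENSMUSG00000078566, chromosome 7, 138890836 to 138909519, minus strand) stood at 379.5, 452, 485 and 411 normalized CPM in controls and at 306, 288, 291 and 319.5 in mutants. It fell by 0.52 on the log2 scale (SE 0.08, edgeR adjusted p = 0.000384). Bnip3l (ENSMUSG00000022051, chromosome 14, 66985239 to 67008877, minus strand) stood at 68.2, 58.7, 65.4 and 58.8 in controls and at 70.4, 77.9, 76.0 and 76.1 in mutants. It rose by 0.26 (SE 0.07, edgeR adjusted p = 0.0104), and the groups did not overlap, though the lowest mutant was close to the highest control.

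The ratio of the 2 transcripts within a library does not depend on the scaling between libraries. The log2 ratio of Bnip3 to Bnip3l per exon length was 3.24 to 3.71 in controls and 2.66 to 2.89 in mutants, a mean difference of -0.78. Bnip3 thus remained the more abundant of the pair in every mouse, by a smaller margin in the mutants. Both genes share sequence with other annotated genes: 57.0% of the 31-base stretches of Bnip3 and 23.7% of those of Bnip3l recur elsewhere. None of the genes they recur in is listed in the count files, and the effect of such copies on the counts was not tested. Fundc1, a further mitophagy receptor of the outer membrane, changed by -0.12 and did not pass the test (edgeR adjusted p = 0.182).

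Transcripts for mitochondrial proteins fell in the same libraries. All 8 genes of a reference list (Ndufs1, Sdhb, Uqcrc2, Cox4i1, Atp5a1, Cs, Vdac1 and Tomm20) were lower in mutants, by a median of -0.81 on the log2 scale. The smallest decrease, -0.25, was that of Tomm20, whose groups overlapped, and the largest, -0.92, that of Sdhb. This list and the following shares were chosen after values had been seen and are given as a description. Set against the summed level of the 8 genes, Pink1 made up 10.7% ± 0.467 in controls and 11.9% ± 1.60 in mutants (SD, n = 4 each), with overlapping groups. Bnip3 made up 6.00% ± 0.487 in controls and 7.24% ± 0.390 in mutants, and Bnip3l 0.875% ± 0.0716 and 1.80% ± 0.0598, both higher in every mutant than in any control. Fundc1 followed the same pattern, at 0.378% ± 0.0221 in controls and 0.600% ± 0.0207 in mutants. The summed level of the 8 genes was itself 6661 to 7491 normalized CPM in controls and 3962 to 4340 in mutants. A gene that fell clearly less than this sum takes a higher share in mutants by construction. The shares of Pink1 and of the 3 receptor genes therefore restate their own changes beside that fall.

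**Figure D2:**
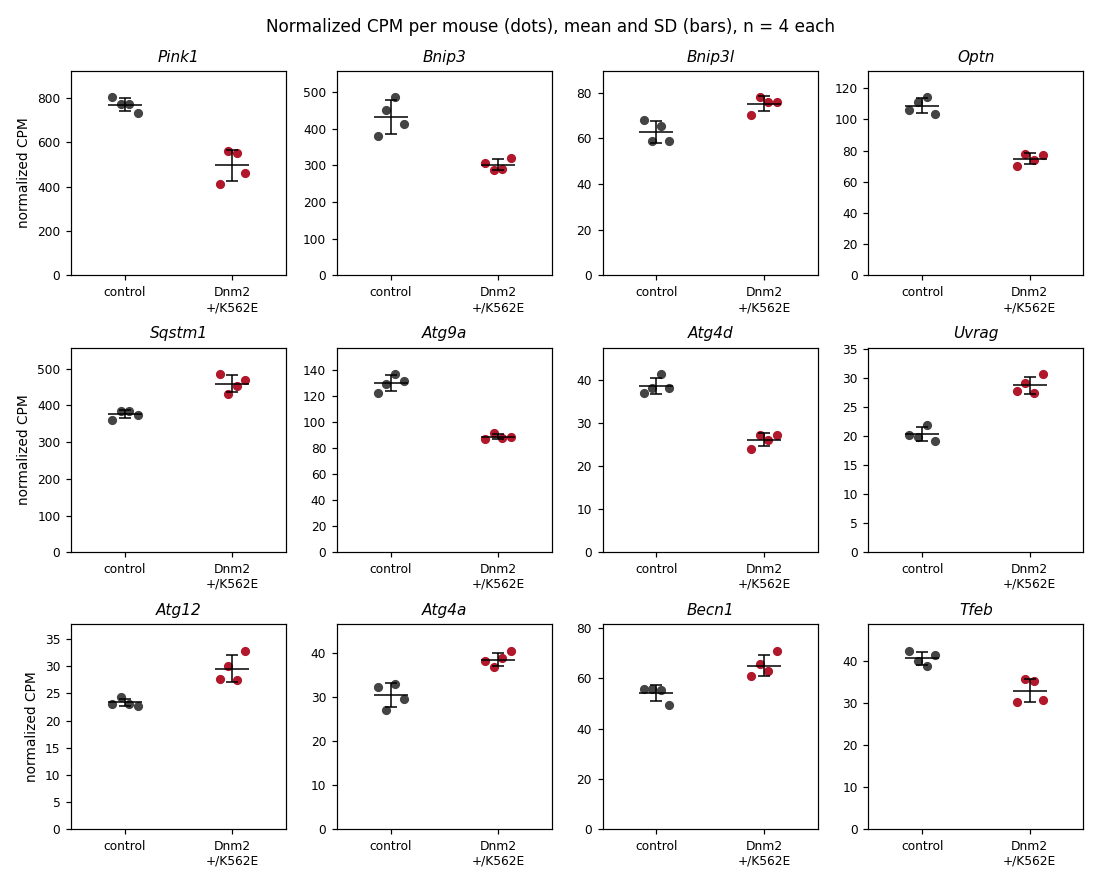
Normalized CPM (y axis, from 0) of 12 called genes in each of the 4 control and 4 Dnm2 +/K562E mice, where each dot is a mouse and bars are the mean and SD. In each panel the dots of the groups do not overlap, with the widest spread of mutants for Pink1 (412 to 559), and Bnip3 and Bnip3l moved in opposite directions. The decrease of Tfeb does not pass the test when libraries are scaled by size alone.

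Cargo receptors carry ubiquitinated proteins and organelles to the autophagosome, and here they were divided. Sqstm1 encodes p62, which is itself degraded with its cargo (ENSMUSG00000015837, chromosome 11, 50199366 to 50210827, minus strand). Its normalized CPM was 361, 384, 385 and 374 in controls and 485, 432, 452 and 468 in mutants. The groups were well apart, and Sqstm1 rose to 1.22 times its control level (log2 fold change 0.29 ± 0.06 SE, edgeR adjusted p = 0.0021). Part of its exon length, 17.3%, overlaps Mrnip on the other strand, which averaged 2.06 normalized CPM in controls and 2.22 in mutants.

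Optn, the gene of optineurin, a receptor for ubiquitinated mitochondria, moved the other way (ENSMUSG00000026672, chromosome 2, 5020642 to 5064051, minus strand). It stood at 106, 111, 114 and 103 normalized CPM in controls and at 70.2, 77.8, 73.8 and 77.4 in mutants. Optn fell to 0.688 of its control level, with no overlap (log2 fold change -0.54 ± 0.06 SE, edgeR adjusted p = 4.29e-05). Nbr1, whose product works beside p62, averaged 139 ± 3.32 in controls and 151 ± 8.01 in mutants (SD, n = 4 each). Its log2 fold change of 0.11 did not pass the test (edgeR adjusted p = 0.122), although its groups did not overlap. The log2 ratio of Sqstm1 to Nbr1 was 2.39 to 2.53 in controls and 2.61 to 2.69 in mutants, so that p62 transcript gained on Nbr1 transcript in each mutant.

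The LC3 and GABARAP proteins are the tags that are attached to the autophagosome membrane. Map1lc3a (ENSMUSG00000027602, chromosome 2, 155276297 to 155278073, plus strand) stood at 141, 165, 167 and 145 normalized CPM in controls and at 141, 149, 141 and 142 in mutants. Its groups overlapped, and the log2 fold change of -0.11 did not pass the test (edgeR adjusted p = 0.212). Map1lc3b (ENSMUSG00000031812, chromosome 8, 121590361 to 121598760, plus strand), the gene of the LC3B protein commonly followed on blots, stood at 179, 182, 175 and 168 in controls and at 151, 152, 151 and 146 in mutants. Map1lc3b fell by 0.23 on the log2 scale (SE 0.05, edgeR adjusted p = 0.0038), a call that did not hold when libraries were scaled by size alone (-0.02, edgeR adjusted p = 0.771).

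None of the 3 GABARAP genes passed the test, while with library size alone all 3 were called higher. Gabarap (ENSMUSG00000018567, chromosome 11, 69991143 to 69994951, plus strand) was at 183, 193, 210.5 and 189.9 normalized CPM in controls and at 218, 203, 206 and 219 in mutants, a log2 fold change of 0.12 (edgeR adjusted p = 0.123). Gabarapl1 (ENSMUSG00000030161, chromosome 6, 129533160 to 129542346, plus strand) was at 82.7, 107, 93.4 and 100.2 in controls and at 102, 105, 115 and 109.8 in mutants, a log2 fold change of 0.17 (edgeR adjusted p = 0.11). Both sets of values overlapped, and control mouse 1 was the lowest for each gene. Gabarapl2 (ENSMUSG00000031950, chromosome 8, 111940703 to 111953612, plus strand) was at 35.5, 41.9, 40.5 and 35.6 in controls and at 38.0, 36.2, 40.3 and 40.3 in mutants. Its log2 fold change of 0.01 had an edgeR adjusted p of 0.917.

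Scaled to exon length, the 5 genes together gave 324 ± 21.3 RPKM in controls and 326 ± 2.98 RPKM in mutants (SD, n = 4 each). With TMM scaling the total differed by less than the spread between controls. Library size alone shifted the log2 fold changes of all 5 genes upward, such as Map1lc3a from -0.11 to 0.10 and Gabarap from 0.12 to 0.34. The total was not recomputed with that scaling. Within the total Map1lc3a made up 40.4% ± 0.998 in controls and 37.2% ± 1.18 in mutants, and Gabarap 32.6% ± 1.18 and 35.2% ± 1.23. Gabarapl1 went from 14.7% ± 1.22 to 16.4% ± 0.818, Map1lc3b from 7.26% ± 0.515 to 6.11% ± 0.169, and Gabarapl2 stood at 5.10% ± 0.167 and 5.11% ± 0.232. The small share of Map1lc3b depends on its annotated exon length of 7517 bases, against 1181 for Map1lc3a. Neither the ratio of Map1lc3a to Map1lc3b nor that of Gabarapl1 to Gabarap separated the groups.

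**Figure D3:**
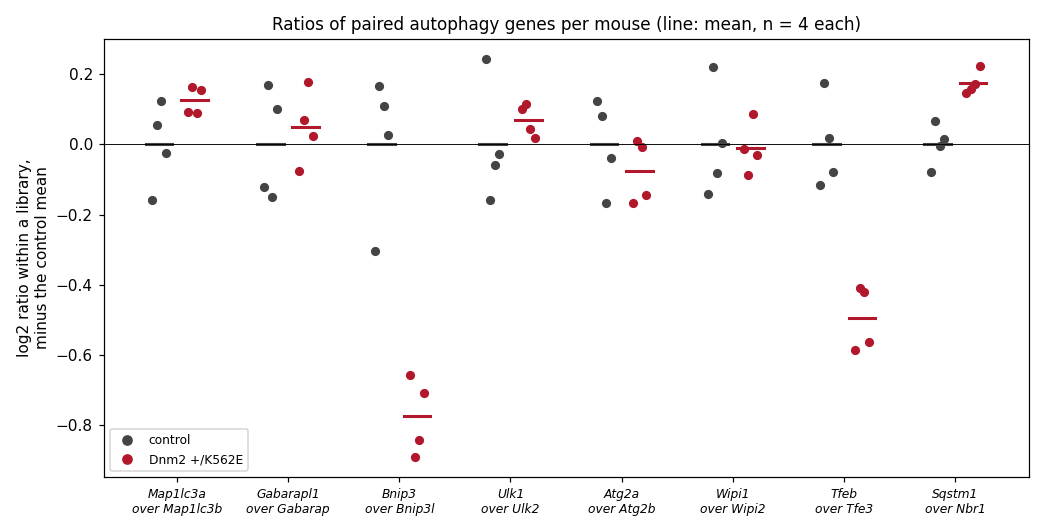
Log2 ratio of the exon-length-scaled counts of 8 pairs of related genes within each library (y axis, minus the mean of the controls), where each dot is a mouse and each line is the mean of 4 mice. The mutants lie apart from the controls for Bnip3 over Bnip3l (mean difference -0.78), Tfeb over Tfe3 (-0.49) and Sqstm1 over Nbr1 (0.18), and overlap with them for the other 5 pairs.

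In the conjugation and processing group, 3 of 10 genes rose, 2 fell and 5 did not pass the test. These are 30% higher and 20% lower, near the 22.2% and 21.7% of all tested genes. The changes were divided among enzymes of 1 family, the ATG4 proteases, which trim LC3 and GABARAP before they are attached and release them again. Atg4d (ENSMUSG00000002820, chromosome 9, 21265293 to 21277772, plus strand) had the largest change of the group, with 37.0, 38.2, 41.4 and 38.3 normalized CPM in controls and 24.1, 27.4, 26.1 and 27.3 in mutants. It fell by 0.56 on the log2 scale (SE 0.07, edgeR adjusted p = 7.61e-05). Kri1, which overlaps 19.3% of its exon length on the other strand, averaged 13.4 ± 1.71 in controls and 12.4 ± 0.655 in mutants (SD, n = 4 each), with an edgeR adjusted p of 0.395. Atg4a rose by 0.34 (SE 0.08, edgeR adjusted p = 0.00419), from 30.6 ± 2.75 to 38.6 ± 1.55 normalized CPM (SD, n = 4 each). Its value is less certain, since 60.7% of its 31-base stretches recur, most of them in the pseudogene Atg4a-ps, which is counted as a gene of its own and averaged 1.06 normalized CPM in controls and 1.14 in mutants. Atg4b and Atg4c, with log2 fold changes of -0.10 and -0.19, did not pass the test.

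The ATG12 branch showed a like division. Atg12, the gene of the ubiquitin-like protein itself, rose by 0.34 (SE 0.07, edgeR adjusted p = 0.00326), with 22.8 to 24.3 normalized CPM in controls and 27.5 to 32.8 in mutants. Atg7, which encodes the activating enzyme of both branches, rose by 0.27 (SE 0.09, edgeR adjusted p = 0.0327). It was close to the threshold and lost its call without any 1 of control mice 1, 2 and 3 or Dnm2 +/K562E mice 1 and 2, with edgeR adjusted p between 0.0577 and 0.0876. Atg10, the E2-like enzyme that passes ATG12 to ATG5, fell by 0.43 (SE 0.10, edgeR adjusted p = 0.00501), from 13.7 to 18.1 in controls to 10.9 to 11.8 in mutants. With library size alone its change was -0.22 with an edgeR adjusted p of 0.087. The acceptor Atg5 (0.05), its partner Atg16l1 (-0.11) and the LC3-conjugating enzyme Atg3 (-0.10) did not pass the test.

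The lipid kinase complex makes the phosphatidylinositol 3-phosphate that recruits later factors. Uvrag, whose product joins the form of the complex found on endosomes, had the largest increase of the 39 genes (ENSMUSG00000035354, chromosome 7, 98885021 to 99141141, minus strand). It stood at 20.2, 19.9, 21.9 and 19.2 normalized CPM in controls and at 27.7, 29.1, 27.3 and 30.6 in mutants. Uvrag rose to 1.41 times its control level (log2 fold change 0.50 ± 0.07 SE, edgeR adjusted p = 0.000212), and every mutant was above every control. Becn1, the gene of the scaffold Beclin 1, rose by 0.27 (SE 0.07, edgeR adjusted p = 0.0092), from 54.1 ± 3.15 to 65.1 ± 4.29 (SD, n = 4 each). Cntd1 overlaps 43.9% of its exon length on the other strand and had 3 to 17 counts per library. With both strands compared, 40.0% of the 31-base stretches of Becn1 recur in Cntd1 and other counted genes, a share that includes this overlap. The other 3 genes had positive log2 fold changes that did not pass the test: 0.12 for the kinase Pik3c3, 0.10 for its regulatory subunit Pik3r4 and 0.04 for Atg14, whose product joins the autophagy form of the complex in place of UVRAG.

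Genes for membrane growth were led by Atg9a, which encodes a lipid scramblase of the vesicles that seed the membrane (ENSMUSG00000033124, chromosome 1, 75180860 to 75192196, minus strand). It stood at 122, 129, 137 and 131 normalized CPM in controls and at 87.2, 91.3, 87.7 and 88.1 in mutants. Atg9a fell to 0.683 of its control level (log2 fold change -0.55 ± 0.05 SE, edgeR adjusted p = 2.17e-05), and the mutants kept within a narrow range. Of its 31-base stretches 32.4% recur in another gene, 1.81% in a gene that was counted. Atg2a, the gene of a lipid transfer protein, fell by 0.21 (SE 0.07, edgeR adjusted p = 0.0319), but was at 0.0026 with library size alone. It also lost its call without any 1 of control mice 1 and 2 or Dnm2 +/K562E mice 1, 3 and 4, with edgeR adjusted p between 0.0552 and 0.087. Its paralogue Atg2b (-0.14) and the genes of the phosphoinositide-binding proteins, Wipi1 (0.09) and Wipi2 (0.10), did not pass the test.

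In the initiation kinase complex 1 of 5 genes passed the test. This is 0% higher and 20% lower, beside 22.2% and 21.7% of all tested genes. Ulk2, 1 of 2 genes for the kinase (ENSMUSG00000004798, chromosome 11, 61775649 to 61855073, minus strand), stood at 113, 133, 138 and 125 normalized CPM in controls and at 109, 112, 108 and 107 in mutants. The highest mutant lay just under the lowest control, and Ulk2 fell by 0.22 (SE 0.07, edgeR adjusted p = 0.021). The call was lost with library size alone (-0.01) and without control mouse 2, control mouse 3 or Dnm2 +/K562E mouse 3, with edgeR adjusted p between 0.0527 and 0.0685 for the 3. Ulk1 (-0.15), the scaffold Rb1cc1 (-0.07) and the subunits Atg13 (0.08) and Atg101 (-0.21) did not pass the test. Atg101 passed it without control mouse 2 (-0.29, edgeR adjusted p = 0.0472).

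TFEB and TFE3 are related transcription factors that bind the E-box CACGTG, often within the longer palindrome TCACGTGA, and switch on genes of autophagy and the lysosome. Tfeb (ENSMUSG00000023990, chromosome 17, 47737030 to 47792419, plus strand) stood at 42.3, 40.1, 38.8 and 41.3 normalized CPM in controls and at 30.2, 35.6, 35.1 and 30.8 in mutants. It fell by 0.30 on the log2 scale (SE 0.07, edgeR adjusted p = 0.00641), which did not hold with library size alone (-0.09, edgeR adjusted p = 0.365). Tfe3 had a log2 fold change of 0.18 that did not pass the test (edgeR adjusted p = 0.12), and passed it without control mouse 1 (0.24, edgeR adjusted p = 0.0431). The log2 ratio of Tfeb to Tfe3, which no scaling between libraries alters, was 1.86 to 2.15 in controls and 1.39 to 1.57 in mutants.

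Promoter windows from 250 bases before to 50 bases after a transcription start were taken from RefSeq (GRCm38.p6) and were found for 32 of the 39 genes, 38 windows in all. On either strand, CACGTG was present in 5 of the 38 windows (13.16%) and in 7.15% of the 32851 windows of the whole table. The longer TCACGTGA, which contains it, was in 1 window (2.632% against 0.9741%), and the forkhead motif GTAAACA was in 0 of 38 against 3.65%. The matches are shown because they are the letters that TFEB and TFE3 read, printed 5′ to 3′ on the strand of the gene with CACGTG in capitals and the distance of its first base from the start.
Atg3, chr16:45158723-45158752, plus strand, at -94: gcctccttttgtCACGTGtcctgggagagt
Atg3, chr16:45158746-45158775, plus strand, at -71: ggagagtcgagtCACGTGaggccttaggtg
Atg5, chr10:44268313-44268342, plus strand, at -14: cggagcgcttgcCACGTGgtcttggtgacg
Atg7, chr6:114670952-114670981, plus strand, at -132: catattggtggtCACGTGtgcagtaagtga
Atg14, chr14:47568418-47568447, minus strand, at -1: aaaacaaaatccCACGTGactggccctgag
Bnip3, chr7:138909597-138909626, minus strand, at -108: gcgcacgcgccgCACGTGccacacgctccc
The 5 genes did not share a direction: Atg7 rose, Bnip3 fell, and Atg3, Atg5 and Atg14 did not pass the test. The matches of Atg7 and Atg14 lie inside the annotated genes, so their windows belong to internal starts. Atg7 begins at 114643097 on the plus strand, and Atg14 begins at 47570649 on the minus strand. The last 30 bases of a window were found in a transcript of its gene for 33 of the 38 windows. A match is a string of letters in this window and was not tested as a binding site.

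Of 50 further genes of the pathway, 3 rose, 15 fell and 32 did not pass the test, with a median log2 fold change of -0.05. These are 6% higher and 30% lower, beside 22.2% and 21.7% of all tested genes. Past both thresholds the catalytic subunits of AMPK, an energy-sensing kinase that acts on ULK1, moved in opposite directions. Prkaa1 rose by 0.71 (edgeR adjusted p = 2.34e-05), from 26.9 ± 2.03 to 44.0 ± 2.06 normalized CPM (SD, n = 4 each). Prkaa2 fell by 0.80 (edgeR adjusted p = 3.09e-06), from 175 ± 9.61 to 101 ± 3.56 (SD, n = 4 each). The SNARE gene Vamp8 fell by 0.77 (edgeR adjusted p = 4.33e-05) and Nipsnap2, which encodes a mitochondrial protein that serves as a mitophagy signal, by 0.75 (edgeR adjusted p = 3.16e-05). The further genes named in the rest of this paragraph were picked out after their values were seen. Retreg1, the gene of a receptor for autophagy of the endoplasmic reticulum, fell by 0.63 (edgeR adjusted p = 0.000152). The other increases were Wdr45b (0.21) and Vps39 (0.38), the latter a subunit of the tethering complex for fusion with the lysosome.

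By role, 6 of 15 upstream regulators fell and 1 rose, and 3 of 11 genes for fusion with the lysosome fell and 1 rose. Of 13 further cargo and mitophagy genes 5 fell and the rest did not pass the test, and of 11 further core factors 1 fell and 1 rose. The same background of 22.2% higher and 21.7% lower holds for these small groups. A separate list of 10 lysosome genes held 5 that rose and 5 that did not pass the test, with a median log2 fold change of 0.26. The increases are 50% of the list, beside 22.2% of all tested genes. Hexa, a subunit of the enzyme that degrades gangliosides, rose by 0.74 (edgeR adjusted p = 0.000103) and the protease gene Ctsl by 0.68 (edgeR adjusted p = 1.81e-05). Smaller increases, picked out after their values were seen, included those of the protease genes Ctsb (0.34) and Ctsd (0.33). These are genes that macrophages also express, and the macrophage markers rose in the same libraries. The part of macrophages in these increases was not tested.

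**Figure D4:**
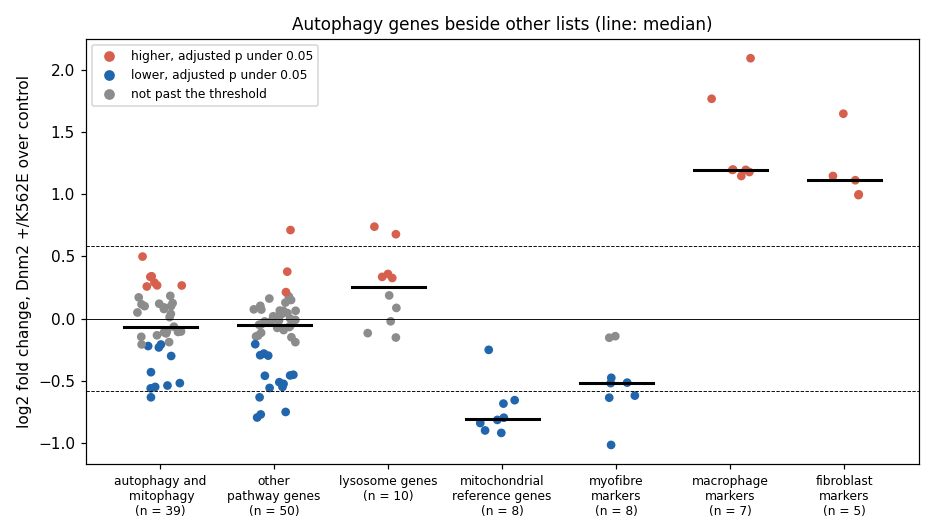
Log2 fold change (y axis, Dnm2 +/K562E over control, TMM scaling) of the 39 autophagy and mitophagy genes beside 6 other lists, where each dot is a gene, each line is the median of the list and dashed lines mark 0.58 in either direction. The medians are -0.07 for the 39 genes, -0.05 for the 50 further pathway genes, 0.26 for the lysosome genes, -0.81 for the mitochondrial reference genes, -0.52 for the myofibre markers, 1.20 for the macrophage markers and 1.11 for the fibroblast markers. With library size alone the median of the 39 genes is 0.15 and that of all tested genes 0.22.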

How the data were processed

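Soleus RNA of 4 control and 4 Dnm2 +/K562E mice was sequenced. Per the labels and the methods of the study, the authors trimmed reads with Trimmomatic 0.33, aligned them with STAR 2.5.1b to GRCm38.p5 with Ensembl gene models, and counted them with featureCounts. The authors deposited raw counts per Ensembl gene ID, 1 file per mouse. Reads overlapping several genes were counted for each, and reads mapping to several places at their primary alignment. A minimum mapping quality was also required, and how many reads mapping to several places it removed was not tested. Overlapping genes and near-identical copies are therefore uncertain. The labels name a stranded total RNA kit and the methods a poly A kit, and the use of strand in counting is not given in the sources used here.

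Counts were filtered with filterByExpr (minimum count 10, minimum total 15), scaled by TMM and tested with the quasi-likelihood test of edgeR 4.0.16 in R 4.3.3, on genotype alone. Adjusted p-values (Benjamini-Hochberg) cover all 14001 tested genes. The threshold was 0.05, with a log2 fold change of 0.58 in the stricter rule. The standard error is the log2 fold change divided by the square root of F. The fit was tested on simulated data. The study itself used the exact test of edgeR, which is here an alternative beside DESeq2 1.42.0, 1 surrogate variable (sva 3.50.0), other scalings and filters, blocks by replicate number and leaving out each mouse. RPKM used the union exon length of GENCODE M21 (GRCm38), to which 22647 of 22880 IDs matched, and coordinates are from the same annotation. Shared sequence was counted as 31-base stretches of a gene's transcripts that recur in another gene on either strand, so overlaps of exons are included. Medians, shares and ratios were computed without a test.

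All 39 genes are named with their log2 fold change. Values per mouse are given for genes past both thresholds, for Map1lc3a, Map1lc3b, Gabarap, Gabarapl1, Gabarapl2, Sqstm1, Tfeb and Pink1, and for the called gene with the largest change in each role. Bnip3 and Bnip3l were added for the contrast within the pair, after their values were seen. Of other lists, the rule gives counts and at most 4 genes past both thresholds. Retreg1, Wdr45b, Vps39, Ctsb and Ctsd fall outside it and were added after their values were seen. The genes and lists were chosen with earlier results of these data known. Values of some single genes of these lists are not reported here.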

Additional observations from a re-analysis of the deposited data

Results flagged for a closer look

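Of 78 groups of 4 mice (39 genes in 2 genotypes), 5 held a mouse far from the other 3 by Dixon's criterion for 4 samples (the gap to the nearest mouse over the whole range), where chance gives about 1 in 20. Becn1 was low in control mouse 4, at 49.4 normalized CPM beside 55.3 to 55.9 in the other controls. Atg14 was high in control mouse 1, at 12.6 beside 9.36 to 9.85. Atg5 was low in control mouse 3, at 17.8 beside 19.6 to 19.7. Among the mutants, Map1lc3a was high in Dnm2 +/K562E mouse 2, at 149 beside 141 to 142, and Map1lc3b was low in Dnm2 +/K562E mouse 4, at 146 beside 151 to 152. The 5 values came from 5 different mice.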

How the results depend on the processing

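Of the 39 genes, all kept their direction and their side of the threshold with the exact test of edgeR, DESeq2, median-ratio factors, mitochondrially encoded genes left out, no filter, a minimum of 10 counts in every mouse and 1 surrogate variable. Library size alone gave 18 genes higher and 5 lower at the adjusted p, and 1 higher (Uvrag, 0.71) and 0 lower at both thresholds. It turned the median over the 39 genes to 0.15 and the log2 fold changes of Ulk1 to 0.066, Rb1cc1 to 0.15, Atg101 to 0.0026, Atg2a to 0.0026, Atg2b to 0.076, Atg3 to 0.11, Atg4b to 0.11, Atg4c to 0.026, Atg16l1 to 0.10, Map1lc3a to 0.10 and Fundc1 to 0.091. By construction it leaves out the TMM factors, which were 0.915 to 0.959 in controls and 1.04 to 1.10 in mutants. Leaving out 1 mouse at a time gave 0 to 4 genes lower at both thresholds: 0 without Dnm2 +/K562E mouse 1, 2 without Dnm2 +/K562E mouse 2 or 4 (Atg4d beside Pink1) and 4 without control mouse 1 (Atg9a, Atg4d, Bnip3 and Pink1). The median over the 39 genes ranged from -0.090 to -0.033, with the latter without control mouse 1, Atg14 from -0.013 to 0.14 and Gabarapl2 from -0.033 to 0.051, neither past the threshold. The cause of these shifts was not tested. Replicate numbers do not pair the mice: the mean correlation of same-numbered mice was -0.11 for the numbers in the titles and -0.03 for those in the descriptions. A replicate block gave 6 genes higher and 9 lower by title (Atg7 and Atg2a lost), and 6 and 10 by description (Atg7 lost), with medians of -0.06. The lowest count of any of the 39 genes in a mouse was 201, and counting error was not separated from the spread between mice.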
